A study of Rattus norvegicus with 14 samples.

Results

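The miR-148 family, to which miR-152 belongs, and the miR-130 family, to which miR-301 belongs, are microRNAs (miRNAs) that share a seed within each family. Their levels were read in pancreatic islets of control rats and of rats on day 14 of gestation. Members were taken as every row of the islet array table named miR-148b, miR-152, miR-130a, miR-130b, miR-301a, miR-301b or miR-301, in any arm or star form. The rule found 7 of the 350 miRNA rows, 3 of the miR-148 family (rno-miR-148b-3p, rno-miR-148b-5p and rno-miR-152) and 4 of the miR-130 family (rno-miR-130a, rno-miR-130b, rno-miR-301a and rno-miR-301b). The control group held 4 arrays of islets from control females, and the pregnant group held 4 arrays of islets from females at day 14 of gestation. The labels give no strain, age or number of animals per array. The study also profiled messenger RNA in INS832/13 cells, an insulin-secreting rat line, which was not used for these miRNAs. Replicates are labelled biological but are tied to no named animals. The p-values therefore reflect only how far these arrays scatter, and precision is limited by their number.

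A miRNA guides an Argonaute protein to messenger RNAs by pairing of its seed, bases 2 to 8 from the 5′ end, and lowers their stability or translation, so miRNAs of 1 seed can act on overlapping targets. The miR-148 family is known for targeting the DNA methyltransferase Dnmt1, and work in mouse beta cells placed miR-148 among the miRNAs that sustain insulin expression by repressing transcriptional repressors. The miR-130 family is known from blood vessel and connective tissue, where miR-130a was described as promoting angiogenesis and as targeting the adipogenic receptor PPARG in human cells. In a rat insulin-secreting cell line, raised miR-130a, miR-130b and miR-152 were reported to lower ATP.

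RefSeq held mature sequences for 5 of the 7 members in rat build GRCr8, and an array name without an arm was matched to the 3p arm. None was found for rno-miR-301a or rno-miR-148b-5p, so their seeds were not read here. They are shown because the seed groups the members and because close sequences bear on how well the array tells them apart. Capitals mark the seed, and each sequence runs 5′ to 3′.
rno-miR-148b-3p: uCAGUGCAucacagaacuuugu
rno-miR-152 (3p arm): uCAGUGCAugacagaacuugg
rno-miR-130a (3p arm): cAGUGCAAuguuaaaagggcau
rno-miR-130b (3p arm): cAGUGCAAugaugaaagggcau
rno-miR-301b (3p arm): cAGUGCAAugguauugucaaagc
The seeds are CAGUGCA in the miR-148 family and AGUGCAA in the miR-130 family. They overlap: the run of 7 bases CAGUGCA covers positions 2 to 8 of miR-148b-3p and positions 1 to 7 of miR-130a. Of the 693 distinct rat mature miRNAs in the RefSeq table, 6 carry this run within their first 8 bases. These are the 5 sequences above and miR-148a-3p, which was not analysed here. Rno-miR-301a could not be counted, since no sequence was found for it.

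Outside the seed miR-148b-3p and miR-152 stayed nearly identical, as did miR-130a and miR-130b, while miR-301b diverged. Counted from the 5′ end without gaps, miR-148b-3p and miR-152 were identical at 19 of 21 positions, with C10G and U20G from miR-148b-3p to miR-152. MiR-130a and miR-130b were identical at 20 of 22 positions, with U11A and A13G from miR-130a to miR-130b. MiR-301b kept 13 of 22 positions of miR-130a. Such close sequences can bind each other's probes, so the values of miR-148b-3p and miR-152 in particular are uncertain to that extent.

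In GRCr8 the mature miR-148b-3p lies at chr7:136299930-136299951 (plus strand), miR-152 at chr10:82329435-82329455 (plus strand) and miR-130a at chr3:90229240-90229261 (minus strand). MiR-301b lies at chr11:97384077-97384099 and miR-130b at chr11:97384430-97384451, both on the plus strand. The gene intervals of Mir148b and Mir152 lie within those of Copz1 and Copz2, which encode paralogous coatomer zeta subunits of transport vesicles, and Mir301a lies within those of Ska2 and Prr11. Mir301b and Mir130b are neighbours on chromosome 11, 269 bases apart, and both lie within the interval of 2610318N02Rikl. Mir130a overlaps the interval of another miRNA gene, Mir3590, and lies in no other annotated gene interval. Its 88-base hairpin, at chr3:90229228-90229315 (GRCr8, minus strand), is shown because miR-130a had the largest difference between the groups among the tested members, with the mature 3p arm (bases 55 to 76) in capitals.
Mir130a hairpin: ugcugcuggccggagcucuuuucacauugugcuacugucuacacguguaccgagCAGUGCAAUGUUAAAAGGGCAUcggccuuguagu

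Each of the 8 arrays detected between 157 and 188 of the 350 miRNAs, and the summed unscaled signal ran from 148467 to 229760. Signals are given scaled: each array was brought to a common 75th percentile, taken over the 153 miRNAs that every array detected, and kept in the original units. The islet miRNA miR-375 was detected on all arrays, at 8614 to 11031 in control and 7836 to 10198 in pregnant islets, while the liver miR-122 was detected on none. Of the acinar markers miR-217 was detected on none, and miR-216a on all 8, at 114 to 312 in control and 25.9 to 242 in pregnant islets. Single arrays stood apart in markers of other cell types. In control replicate 2 the summed signal of 6 stromal and smooth muscle miRNAs was 6897, against 1385 to 2106 on the other control arrays. Of that 6897, miR-143 alone gave 6189. In pregnant replicate 2 the summed signal of 5 leukocyte miRNAs was 5101, against 405 to 594 on the other pregnant arrays. In whole islet preparations, fewer cells of a type and less of a miRNA per cell cannot be told apart.

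Of the 7 members, 4 were detected on all 8 arrays: rno-miR-148b-3p, rno-miR-152, rno-miR-130a and rno-miR-301a. The other 3 were detected on too few arrays to be tested, since a test required detection on at least 4. Each family therefore rested on 2 measured members.

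Rno-miR-130a, the angiogenesis-linked member, was the only tested member whose groups did not overlap. Of all 171 tested miRNAs, 16 had every pregnant array below every control array and 9 had every pregnant array above. Its scaled signal was 613, 803, 621 and 615 in control replicates 1 to 4, and 332, 602, 453 and 400 in pregnant replicates 1 to 4. Every pregnant array read lower than every control array, with pregnant replicate 2 close under the lowest control and the rest well below. The mean was 663 ± 93.2 (SD, n = 4) in control and 447 ± 115 (SD, n = 4) in pregnant islets. The log2 change, pregnant minus control, was -0.59 (SE 0.19, n = 4 per group), a level 1.51-fold lower with a 95% interval of 1.12 to 2.04. It did not pass the threshold of 0.05 after adjustment over all 171 miRNAs tested (limma unadjusted p = 0.0141, adjusted p = 0.121). The exact permutation test over the arrays, 2-sided, gave p = 0.0286, the smallest that 4 against 4 arrays allow. Any miRNA whose groups do not overlap gets this value.

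Rno-miR-301a, hosted by the gene of the spindle and kinetochore protein Ska2, belongs to the same family and had a log2 change of the opposite sign that did not pass the test. Its scaled signal was 653, 684, 629 and 693 in control replicates 1 to 4, and 734, 597, 815 and 718 in pregnant replicates 1 to 4. The groups overlapped because pregnant replicate 2 was the lowest of all 8 arrays, while the other 3 pregnant arrays lay above every control array. The log2 change was 0.10 (SE 0.10, 95% interval -0.14 to 0.33, n = 4 per group, limma adjusted p = 0.600). It was 0.034 without pregnant replicate 3 and 0.18 without pregnant replicate 2.

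In the miR-148 family both measured members had intervals that include 0. Rno-miR-148b-3p, a Copz1-hosted miRNA, read 366, 335, 381 and 382 in control replicates 1 to 4, and 372, 329, 374 and 389 in pregnant replicates 1 to 4. Both groups spanned nearly the same range, and replicate 2 was the lowest array of each. Its log2 change was -0.00099 (SE 0.079, 95% interval -0.19 to 0.18, n = 4 per group, limma adjusted p = 0.990), so a difference of up to 1.14-fold in either direction lies within the interval.

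Rno-miR-152, the Copz2-hosted member, read 165, 155, 166 and 139 in control replicates 1 to 4, and 122, 147.6, 129 and 183 in pregnant replicates 1 to 4. The pregnant arrays spread on both sides of the controls, with pregnant replicate 4 above and replicates 1 and 3 below all of them. The log2 change was -0.12 (SE 0.14, 95% interval -0.43 to 0.20, n = 4 per group, limma adjusted p = 0.622). Leaving out pregnant replicate 4 gave -0.23, leaving out replicate 3 of that group -0.067, and leaving out its replicate 1 -0.039. Among the settings tried, its sign turned to 0.033 when all miRNAs of an array set the scale. It turned to 0.045 in the authors' normalized values or after quantile normalization. Both of these settings gave nearly the same value for every tested member, so they are not separate reversals.

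**Figure D1:**
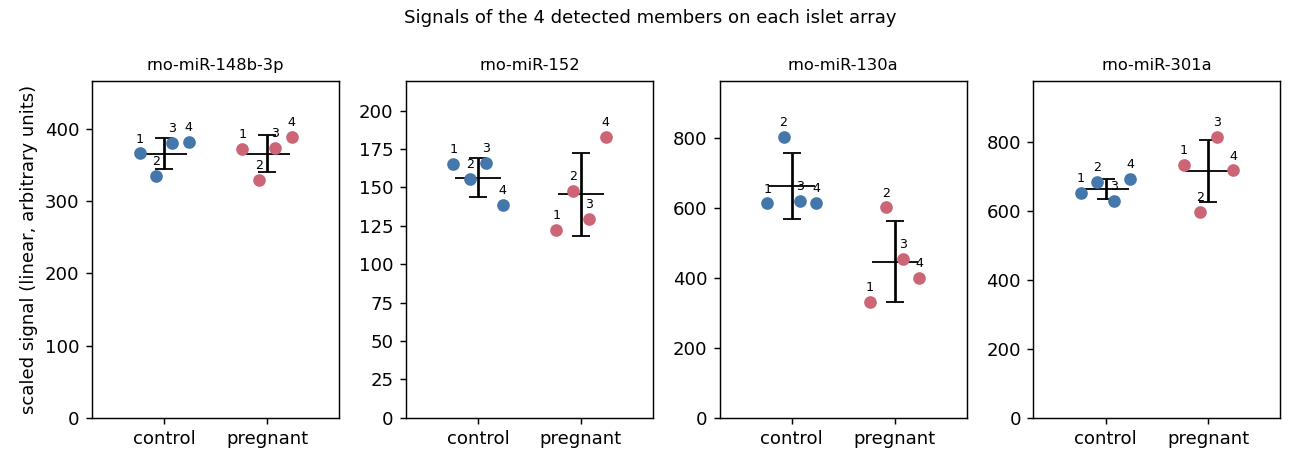
Scaled signal (linear, arbitrary units) of the 4 detected members on each control (blue) and pregnant (red) array, with replicate numbers beside the points and bars for mean and SD (n = 4). For rno-miR-130a the pregnant arrays lie at 332 to 602 and the control arrays at 613 to 803, while the groups of the other 3 members overlap.

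Read against all 171 tested miRNAs, 0 of 4 members were called by limma at an adjusted p under 0.05, where 4.68% of all tested were. At an unadjusted p under 0.05 the count was 1 of 4, rno-miR-130a, where the share over all tested was 24.6%. One member had all pregnant arrays below all control arrays, a pattern that 9.36% of the tested miRNAs showed. The median log2 change was -0.059 over the 4 members and -0.017 over all 171. The log2 change of rno-miR-130a was the 17th most negative and its p the 20th smallest of the 171.

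**Figure D2:**
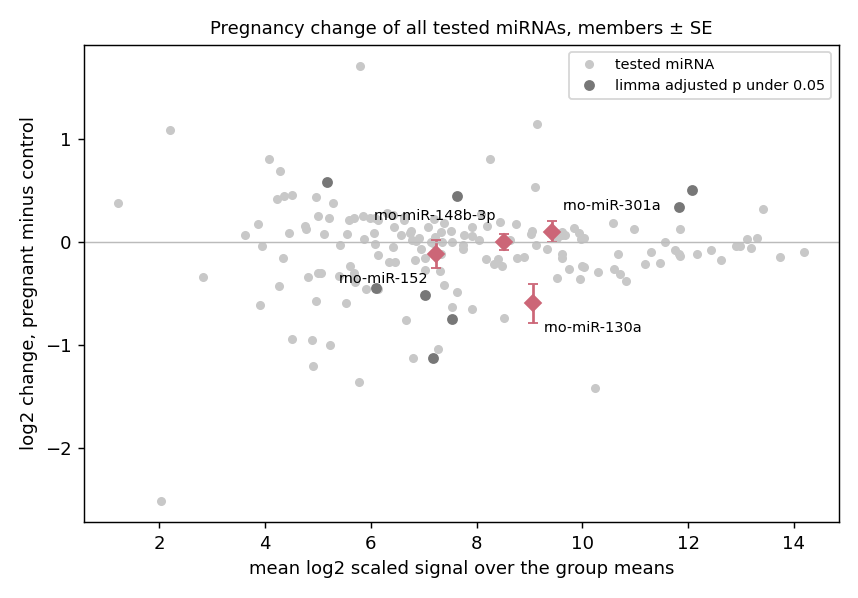
Log2 change, pregnant minus control, against mean log2 scaled signal for the 171 tested miRNAs (light grey), those with a limma adjusted p under 0.05 (dark grey) and the 4 members (red diamonds, ± SE). Rno-miR-130a sits at -0.59, apart from the other 3 members, which lie between -0.12 and 0.10.

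The members also differed in how much they varied between arrays of 1 group. The pooled SD within groups on the log2 scale was 0.096 for rno-miR-148b-3p and 0.14 for rno-miR-301a, both below the median of 0.17 over all tested miRNAs. It was 0.20 for rno-miR-152 and 0.29 for rno-miR-130a, both above that median. The SD was larger among the pregnant than among the control arrays for all 4 members, a comparison that was not tested. The share of all tested miRNAs with this pattern was not counted, so it is not read as particular to the members. On the log2 scale rno-miR-148b-3p had an SD of 0.105 against 0.088, and rno-miR-130a had an SD of 0.36 against 0.19, rno-miR-152 one of 0.26 against 0.12 and rno-miR-301a one of 0.19 against 0.064.

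Of the 8 arrays, leaving out 1 took rno-miR-130a past the threshold, and leaving out any of the other 7 did not (limma adjusted p of 0.128 to 0.258). Without pregnant replicate 2, which had the highest leukocyte sum, its log2 change was -0.75 (limma adjusted p = 0.0294). Without control replicate 2, which had the highest stromal sum, it was -0.50 (limma adjusted p = 0.258). With both left out, an alternative chosen after the data were seen, it was -0.65 (SE 0.12, limma adjusted p = 0.0380). Over the arrays left out one at a time the log2 change ran from -0.75 to -0.46. The slide rows, which no label states and which were taken from array names, held 3 pregnant and 1 control array in row 1 and 1 pregnant and 3 control arrays in row 2. With the row as a block the log2 change of rno-miR-130a was -0.82 (SE 0.15, limma adjusted p = 0.0360), a call that the fit without the block did not make. Each row holds 1 group by a single array: the lone control of row 1 was control replicate 2, the highest of all 8 in rno-miR-130a, and the lone pregnant array of row 2 was pregnant replicate 1, the lowest of all 8. Within row 1 rno-miR-130a differed by -0.75 and within row 2 by -0.89, where the direction follows from groups that do not overlap. For rno-miR-301a the difference was 0.041 within row 1 and 0.16 within row 2, for rno-miR-152 -0.034 and -0.35, and for rno-miR-148b-3p 0.12 and -0.017.

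**Figure D3:**
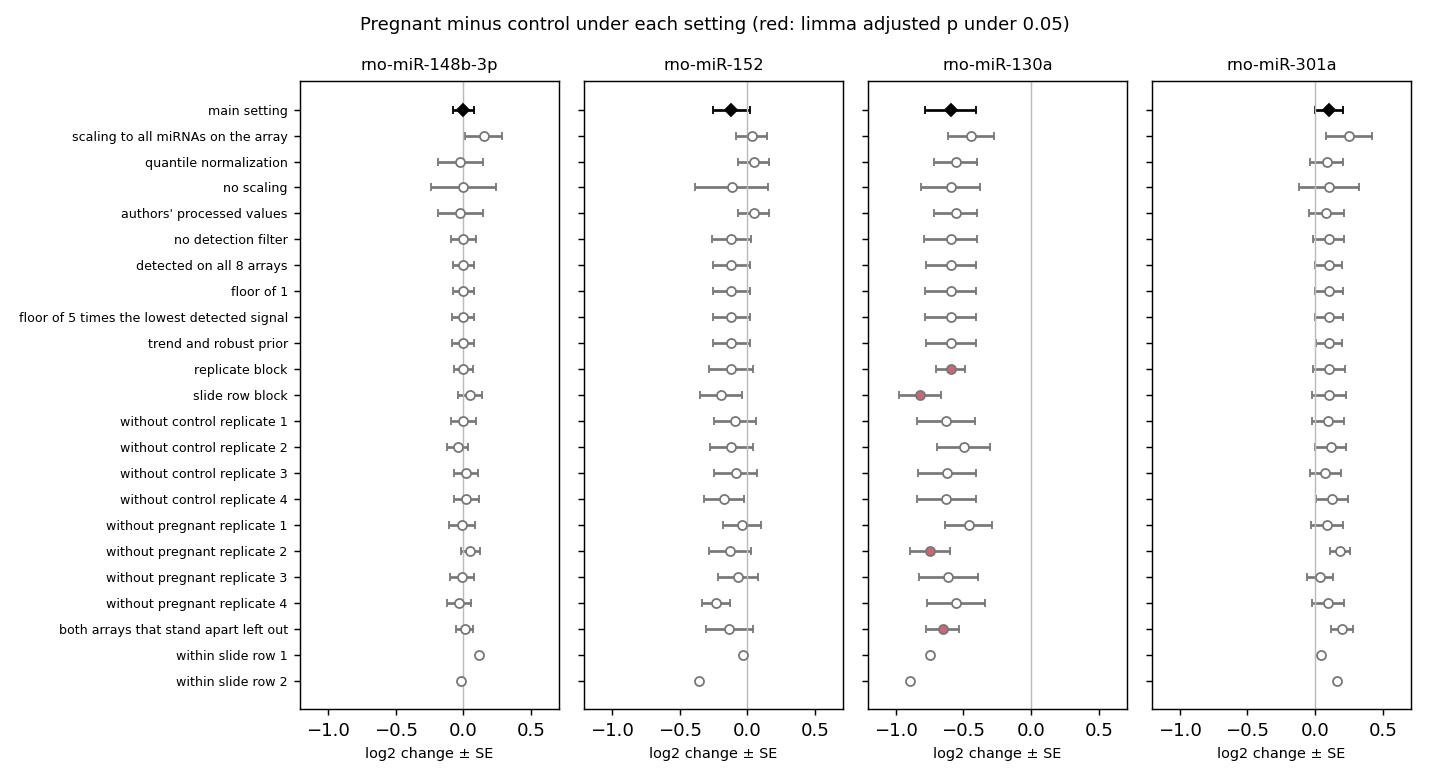
Log2 change, pregnant minus control, with SE of the 4 members under each processing setting, where a red fill marks a limma adjusted p under 0.05 and the 2 lowest rows are differences within a slide row, with no SE. Rno-miR-130a stays negative throughout, from -0.89 to -0.44, and passes the threshold in 4 settings, while no setting called another member. Since its groups do not overlap, its sign could change only under another scaling or in the authors' values.

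The balance between members was compared as the log2 difference of a pair on the same array. Scaling by a factor per array cancels in such a difference. Probes differ in how strongly they bind, so the ratio itself is not a ratio of molecules and only its difference between groups was tested. The difference of rno-miR-130a minus rno-miR-301a was -0.092, 0.23, -0.019 and -0.17 in control replicates 1 to 4, and -1.15, 0.012, -0.85 and -0.84 in pregnant replicates 1 to 4. Pregnant replicates 1, 3 and 4 lay below every control array, and replicate 2 lay among the controls. Its mean moved by -0.69 (SE 0.26, n = 4 per group), a 1.62-fold shift of the balance away from rno-miR-130a. By an exact permutation test, 2-sided, it did not pass (p = 0.114, adjusted over the 6 pairs p = 0.229). With 1 array left out the shift ran from -0.93 without pregnant replicate 2 to -0.55 without pregnant replicate 1. The exact permutation p was 0.0571 for the first, the smallest that 4 against 3 arrays allow (adjusted p = 0.114), and 0.229 for the second (adjusted p = 0.457).

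Against the miR-148 family members rno-miR-130a gave similar shifts, which reuse the same rno-miR-130a readings and so are not independent of the pair above. Its difference to rno-miR-148b-3p moved by -0.59 (SE 0.26) and that to rno-miR-152 by -0.48 (SE 0.23), each with n = 4 per group and an exact permutation p of 0.114, adjusted p = 0.229. The balance within the miR-148 family, rno-miR-148b-3p minus rno-miR-152, moved by 0.12 (SE 0.15, n = 4 per group, exact permutation p = 0.429, adjusted p = 0.429), and turned to -0.068 in the authors' normalized values or after quantile normalization. The remaining pairs, rno-miR-148b-3p and rno-miR-152 each against rno-miR-301a, moved by -0.100 and -0.22, with exact permutation p-values of 0.286 and 0.314 and an adjusted p of 0.377 each.

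**Figure D4:**
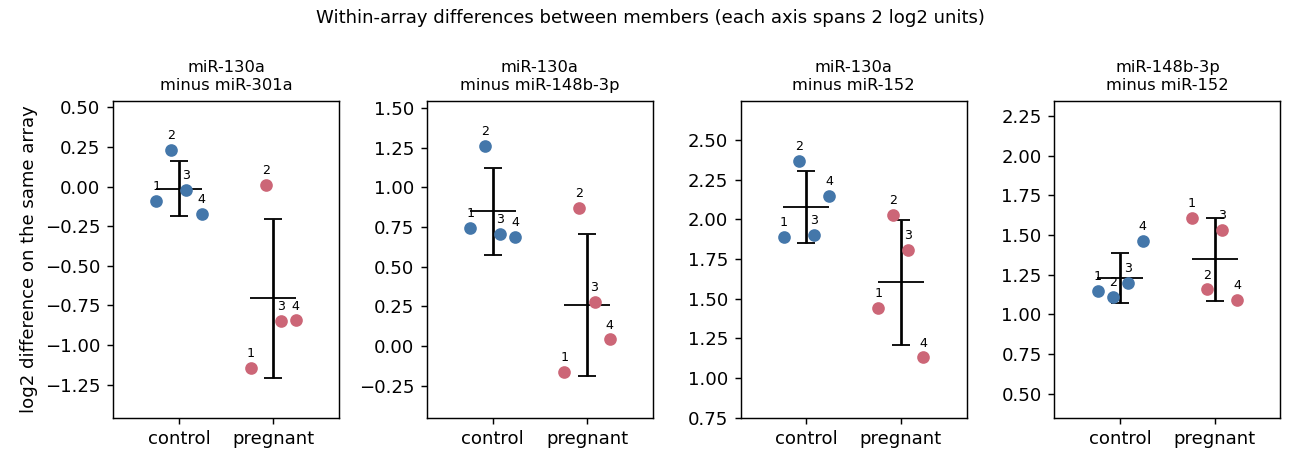
Log2 difference between a pair of members on the same array, for control (blue) and pregnant (red) arrays with replicate numbers, and bars for mean and SD (n = 4); every panel spans 2 log2 units. In rno-miR-130a minus rno-miR-301a, 3 pregnant arrays lie at -1.15 to -0.84, and pregnant replicate 2 lies at 0.012 among the controls.

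Markers of other cell types are given beside rno-miR-130a because replicate 2 of each group stood apart in them, although 0 markers of any list passed the limma threshold. All 5 tested miRNAs of the 6 in the stromal and smooth muscle list (miR-143, miR-145, miR-10b, miR-199a-5p, miR-199a-3p and miR-214) had negative log2 changes, 0 of them past the limma threshold, while miR-145 was detected on 1 array. The summed scaled signal of the list was 1385 to 6897 in control and 807 to 1712 in pregnant islets. Control replicate 2 had the highest rno-miR-130a signal (803) and the highest stromal sum (6897) of all arrays. Of that sum miR-143 alone gave 6189. MiR-145, miR-10b and miR-214 were also highest on that array, while miR-199a-3p and miR-199a-5p were highest in pregnant replicate 2. The last 2 read 356 and 67.1 in pregnant replicate 2, against 279 and 58.9 in control replicate 2. Among the pregnant arrays, replicate 2 had the highest rno-miR-130a signal (602) and also the highest stromal sum (1712). Control replicates 1, 3 and 4 read 613, 621 and 615 in rno-miR-130a, too close together to be ordered, at stromal sums of 2106, 1385 and 2071. Pregnant replicates 1, 3 and 4 read 332, 453 and 400, at stromal sums of 839, 807 and 1143. The order among so few arrays was not tested.

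Both endothelial strands, miR-126 and miR-126*, had negative log2 changes, -0.26 (SE 0.097, limma adjusted p = 0.142) for the first. The second stood at -0.033 (SE 0.16), with 0.902 as its limma adjusted p. Their summed signal was 1662 to 1776 in control islets, 1736 in pregnant replicate 2, and 1280 to 1470 in the other 3 pregnant arrays. In those 3, replicates 1, 3 and 4, the endothelial sums were 1399, 1280 and 1470, beside rno-miR-130a signals of 332, 453 and 400. The leukocyte sum was 520 to 760 in control islets and 405 to 5101 in pregnant ones, with the highest value again in pregnant replicate 2. Both erythroid miRNAs, miR-144 and miR-451, had positive log2 changes, with sums of 266 to 732 in control and 651 to 1653 in pregnant islets. The acinar sum was 115 to 314 in control and 27.0 to 243 in pregnant islets, highest in replicate 2 of each group. The endocrine sum was 28056 to 33533 in control and 24230 to 31297 in pregnant islets, lowest in replicate 2 of each group. No array lacked the defining markers miR-143, miR-126 or miR-142-3p, which were detected on all 8. The part of these cell types in the rno-miR-130a result was not tested.

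**Figure D5:**
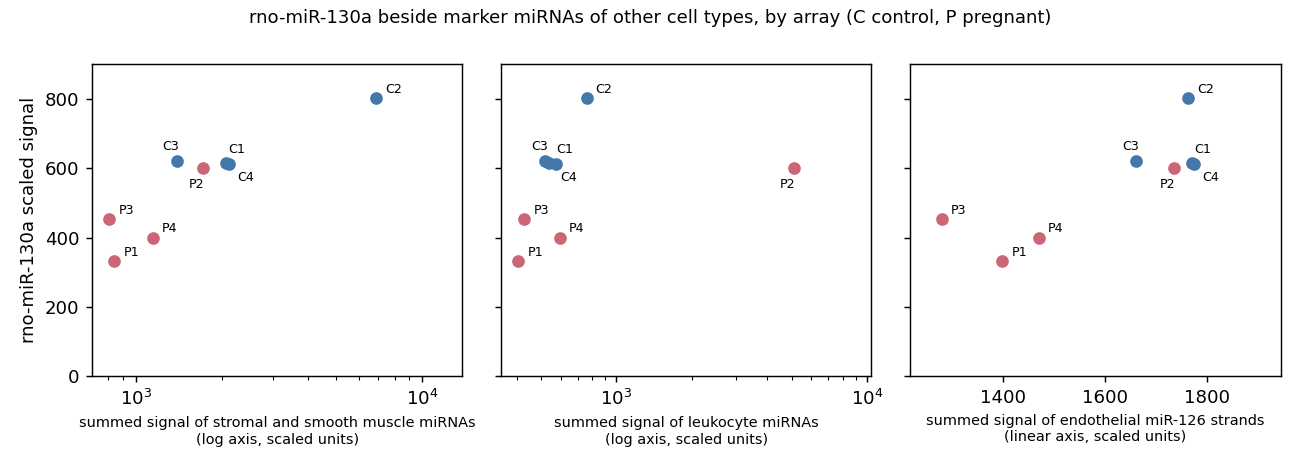
Scaled signal of rno-miR-130a on each array (C control, P pregnant, with replicate number) against the summed scaled signal of stromal, leukocyte and endothelial miRNAs (left and middle on a log axis). Control replicate 2 is highest in rno-miR-130a (803) and in the stromal sum (6897), and pregnant replicate 2 (602) sits apart from the other pregnant arrays, which read 332 to 453.

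The miRNAs most like each member were found as the 3 with the highest Pearson's r of log2 signal over the 8 arrays. These are maxima over the other 170 tested miRNAs, which share arrays and scaling, and so carry no test. For rno-miR-130a they were miR-27a of the miR-23a cluster (r 0.930, Spearman's rho 0.762), and miR-195 (r 0.924, rho 0.810) and miR-497 (r 0.915, rho 0.690), which share a cluster and the miR-15/16 type of seed. The r of the deviations from the group means was 0.876, 0.814 and 0.819 for these 3. The log2 changes of miR-27a, miR-195 and miR-497 were -0.26 (SE 0.12), -0.65 (SE 0.20) and -0.63 (SE 0.23), with limma adjusted p-values of 0.212, 0.120 and 0.142.

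The miR-301a profile was most like those of miR-183 (r 0.928, rho 0.854), which is known from sensory organs, miR-98 of the let-7 family (r 0.854, rho 0.905) and miR-186 (r 0.848, rho 0.905). For rno-miR-152 they were the hypoxia-induced miR-210 (r 0.879, rho 0.786), miR-425 (r 0.751, rho 0.833) and miR-125a-3p (r 0.747, rho 0.786). For rno-miR-148b-3p they were miR-107 (r 0.842, rho 0.667), the epithelial miR-200c (r 0.801, rho 0.524) and miR-154 (r 0.765, rho 0.714). No miRNA appeared among the 3 of more than 1 member, and no member appeared among those of another.

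The 3 remaining members stayed near the bottom of the scale. On the unscaled scale, where the lowest value written is 1, rno-miR-130b read 5.35, 1, 1 and 1 in control replicates 1 to 4 and 7.26, 15.2, 7.47 and 21.6 in pregnant replicates 1 to 4. Every pregnant reading was above every control reading, but the miRNA was marked as detected only in pregnant replicate 4, so no fold is given. On that array the lowest unscaled reading marked as detected was 1, against 1.79 to 8.35 on the other arrays. This order was seen in 2 of the 179 untested rows, the other being miR-325-5p, which is named here after its values were seen. Of these 179 rows, 102 read 1 on all 8 arrays and so could not show it. The negative control feature was also higher on every pregnant array, at 54.2 to 65.7 unscaled against 16.7 to 45.9 on control arrays. After scaling the groups overlapped in it, at 53.2 to 74.7 against 17.2 to 55.1. Every rno-miR-130b reading lay below the negative control value of the same array. On the pregnant arrays so did the endocrine marker miR-7a*, at 25.7 to 30.8 scaled, although it was detected on all 8 arrays. Lying below that value therefore does not by itself mark a miRNA as undetected. The part of the negative control signal in the rno-miR-130b readings was not tested.

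Rno-miR-301b, the neighbour of rno-miR-130b, read 1 on all 8 arrays, as did 57% of the 179 untested rows. Rno-miR-148b-5p, the partner strand of rno-miR-148b-3p, was detected on no array, with its highest unscaled reading, 3.46, in pregnant replicate 4.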

How the data were processed

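Total RNA of rat islets was labelled with cyanine 3 and read on 1-colour Agilent miRNA arrays, per the labels' protocols and the file headers. The authors deposited for each miRNA an intensity that is not normalized, its detection flag, and log2 values they normalized between arrays, per the file headers; neither label nor header names the scanner software or the normalization. Columns were matched to samples by the names in the file headers, which place the flags in another order than the signals.

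Signals were scaled as described above (factors 0.810 to 1.30), given a floor of 0.810 (the smallest scaled value of a detected miRNA) and put on a log2 scale. The 171 miRNAs detected on at least 4 of 8 arrays entered a limma fit (version 3.58.1, under R 4.3.3) by lmFit and eBayes, 2-sided, without a replicate block, with Benjamini-Hochberg adjustment over all 171 and a threshold of 0.05. Pairs of members were compared by exact permutation over arrays (scipy 1.17.1). Named miRNAs are the members, the 3 most like each, and marker lists. The members and lists were chosen with earlier results of these data known. Alternatives were other scalings, the authors' values, other filters, floors and priors, a replicate block, a slide row block and leaving out arrays. Mature sequences are RefSeq's.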

Additional observations from a re-analysis of the deposited data

Results flagged for a closer look

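Among 20 groups of 4 arrays looked at (4 members and 6 pairs of members, control and pregnant), 2 held an array far from the others, where chance gives about 1 in 20. Control replicate 2 had a log2 signal of 9.65 for rno-miR-130a, against 9.26 to 9.28 on the other 3 control arrays. On the same array rno-miR-130a minus rno-miR-148b-3p was 1.26, against 0.69 to 0.74 on the others. Both rest on 1 reading of rno-miR-130a, from the array with the highest stromal sum.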

How the results depend on the processing

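The 8 calls over all tested miRNAs came to 2 when all miRNAs of an array set its scale, to 23 in a fit blocked on slide row, and to 0 by limma without scaling (20 at an unadjusted p under 0.05) and without the detection filter (48). They ran from 0 to 19 when 1 array was left out (32 to 52 at an unadjusted p under 0.05). Scaling to all miRNAs moved the median of all log2 changes from -0.017 to 0.13. Rno-miR-130a had a negative log2 change under every setting tried, at -0.44 in that scaling. Because its groups do not overlap, leaving out arrays or blocking on replicate or slide row could not change that sign. Filters, floors and priors left its value at -0.59, so only the scalings and the authors' values could move the sign. It passed the threshold with the replicate block (-0.59, limma adjusted p = 0.0480) and the slide row block (-0.82). It also passed with both arrays that stand apart left out (-0.65) and without pregnant replicate 2. When 1 array was left out it ran from -0.75 to -0.46. The labels tie no replicate numbers across groups, and same-numbered arrays deviated together at r of -0.14, 0.17, -0.28 and -0.49, so the block pairs nothing known. It changed no other member's call. Rno-miR-148b-3p, near 0, turned positive under scaling to all miRNAs (0.15), with the row block (0.049), within row 1 (0.12) and with both arrays left out (0.0077), and ran from -0.043 to 0.049 without 1 array. Rno-miR-152 turned to 0.033 under scaling to all miRNAs. It turned to 0.045 with quantile normalization and with the authors' values, which gave nearly the same value for every tested member. In these last 2 settings rno-miR-148b-3p minus rno-miR-152 turned to -0.068, and within row 1 rno-miR-148b-3p minus rno-miR-301a turned to 0.074. Scaling to all miRNAs applies 1 factor per array, so it shifts the log2 changes of the tested members alike. The cause of the other moves was not tested.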
